A study of Rattus norvegicus with 12 samples.

Results

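NF-kappaB is described here through 10 of its genes in rat lung and lung endothelial cells (ECs). They are the subunit and precursor genes Nfkb1, Nfkb2, Rel and Relb, the IkappaB family genes Nfkbia, Nfkbiz and Bcl3, and the feedback genes Tnfaip3, Birc3 and Zc3h12a. They were picked by name out of the 19230 rows of a table of gene symbols, and all 10 were measured. Relb occurs only in a row merged with Clasrp, so a change of that row cannot be given to Relb alone.

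RNA from Sprague-Dawley rats was sequenced in 12 libraries, 3 for each group. One lung group was wild type (WT) and kept in normoxia (day 0). Another was WT and taken on day 4 of SuHx, and the third carried the label Ahr-KO and was likewise taken on day 4 of SuHx. The ECs were WT, in normoxia. SuHx joins SU5416 (Sugen), a VEGF receptor inhibitor, to hypoxia as a model of pulmonary arterial hypertension. Ahr encodes the aryl hydrocarbon receptor, a ligand-activated transcription factor. No group analysed here had SU5416 or hypoxia alone, so the effects of the drug and the hypoxia cannot be told apart. No Ahr-KO group in normoxia was analysed here either, so effects of genotype in normoxia and under SuHx cannot be told apart. The EC samples are labelled day 4 although their column names give 0, and their isolation was not given in the sources used here. Whether the replicates are separate animals is not stated, so p-values measure only the spread between these samples. Ahr signal under SuHx was 2515, 2523 and 1800.0 with the Ahr-KO label and 1996, 3073 and 1739.6 in WT, so the ranges overlapped. Which part was deleted is not stated, so the genotype is used as labelled.

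NF-kappaB factors are dimers of Rel family proteins that IkappaB proteins hold inactive in the cytoplasm. Receptors for TNF, interleukin 1 or microbial products activate the IkappaB kinases, the IkappaB is degraded, and the dimer enters the nucleus and binds kappaB sites. Among the genes it induces are its own inhibitors and subunits, which makes the pathway limit itself, and in endothelium it drives chemokines and leukocyte adhesion molecules.

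Promoter stretches with a kappaB motif are shown because several of these genes are textbook targets of the factor that they encode or inhibit. RefSeq promoter sequences of the GRCr8 assembly, from 250 bases before to 50 after each start, were found for 8 of the 10 genes. Relb and Birc3 had no entry. Both strands were searched for the kappaB decamer consensus. It occurred in 7 of the 8 promoters, against 4.18% of all 33469 promoters in the RefSeq table, 4.49% of the 21851 promoters of protein-coding genes and 5.11% of the 12438 promoters of rows whose mean signal reached 1. The promoter of Zc3h12a had no match, which says only that these letters are not in that window. A match is a description of the sequence and was not measured as a bound site. Letters that match are in capitals in the sequences, which run 5′ to 3′ on the gene's strand. Where the RefSeq gene model reaches well before the start used, only 30 bases around the match are shown, and elsewhere up to 200 bases before the gene model.
Nfkb1: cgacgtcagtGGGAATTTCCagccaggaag
Nfkb2: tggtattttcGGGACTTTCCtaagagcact
Rel: gtaggcagcGGGAAATCCCCccccgttccg
Nfkbia: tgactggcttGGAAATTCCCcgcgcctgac
Nfkbiz: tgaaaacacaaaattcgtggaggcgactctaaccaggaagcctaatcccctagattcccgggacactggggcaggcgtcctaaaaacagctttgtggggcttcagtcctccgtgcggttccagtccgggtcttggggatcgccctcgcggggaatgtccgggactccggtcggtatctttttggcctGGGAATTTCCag
Tnfaip3: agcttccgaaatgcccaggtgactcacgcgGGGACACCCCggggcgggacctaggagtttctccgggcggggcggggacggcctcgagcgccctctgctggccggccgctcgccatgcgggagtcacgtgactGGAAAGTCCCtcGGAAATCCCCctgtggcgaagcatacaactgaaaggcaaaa
Bcl3: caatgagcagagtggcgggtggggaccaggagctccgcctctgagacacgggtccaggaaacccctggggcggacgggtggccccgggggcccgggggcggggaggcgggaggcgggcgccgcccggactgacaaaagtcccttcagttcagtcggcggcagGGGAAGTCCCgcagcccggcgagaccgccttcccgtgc

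In GRCr8 these stretches lie at chr2:226805440-226805469 (minus strand) for Nfkb1, chr1:255108344-255108373 (plus strand) for Nfkb2, chr14:101922000-101922029 (minus strand) for Rel, chr6:78597084-78597113 (minus strand) for Nfkbia, chr11:58251521-58251719 (plus strand) for Nfkbiz, chr1:15543994-15544179 (minus strand) for Tnfaip3 and chr1:88613556-88613755 (minus strand) for Bcl3. The match of Nfkb1 lies 4 to 13 bases after its start and is GGGAATTTCC. That of Nfkb2 lies 20 to 11 bases before its start and is GGGACTTTCC. It is inside the gene model of Nfkb2, which begins 2364 bases before the start used. The models of Nfkb1, Rel and Nfkbia begin 435, 386 and 235 bases before the starts used, so their matches lie inside them too. Read on the opposite strand, the match of Nfkbia, 31 to 22 bases before the start, has the same letters as that of Nfkb1, GGGAATTTCC. Nfkbiz carries these letters too, 13 to 4 bases before its start, on its own strand. Rel has overlapping matches on both strands between 82 and 72 bases before its start. Tnfaip3 has 3 matches, at 170 to 161, 67 to 58 and 55 to 46 bases before its start. The single match of Bcl3 lies 38 to 29 bases before the start, on the opposite strand. Of the related genes listed with the pathway, 8 of the 22 target genes in the RefSeq table held a match (Vcam1, Il6, Ccl20, Irf1, Cxcl10, Cxcl2, Cxcl1 and Cd83), 3 of 15 receptors and adaptors, 3 of 10 ligands, 2 of 10 other core genes, 2 of 12 other brakes and 0 of 8 mRNA decay factors.

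**Figure D1:**
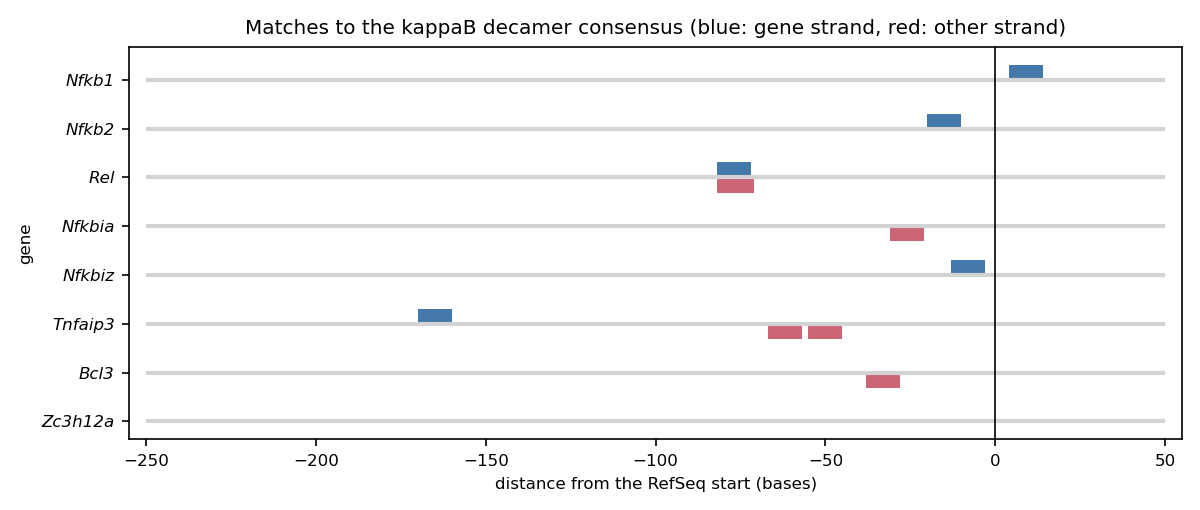
Positions of matches to the kappaB decamer consensus in the 8 RefSeq promoters (horizontal axis: bases from the start; one row per gene; blue boxes on the gene's strand, red boxes on the opposite strand). The matches of 6 genes lie before the start used, that of Nfkb1 lies after it, and Zc3h12a has none. Those of Nfkb1, Nfkb2, Rel and Nfkbia lie inside their gene models.

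The deposited values are a signal, an estimated read count divided by 1 factor per library. Library totals stood for an estimated 20036862 to 28592828 reads. The 10 rows were well covered, from 201 reads for Birc3 in a normoxia lung to 30858 reads for Nfkbia in an EC library. Transcript lengths were not used here, so levels are compared between samples and not between genes. Library values are given in the order of the column suffixes 0, 1 and 2. Differences were tested with limma on log2(signal + 1), and a row was called where the p, adjusted by Benjamini-Hochberg over all rows tested, was under 0.05. In bulk samples such as these, fewer cells of a type and less RNA per cell cannot be told apart.

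ECs were compared with WT normoxia lung to see how the pathway's genes stand in the endothelial preparation. All 10 rows were higher in ECs, and in each of them every EC library lay above all 9 lung libraries. Of all rows tested, 56.2% were called, 26.1% higher and 30.1% lower in ECs. All 3 EC libraries lay above the 3 normoxia lungs in 30.4% of rows and below them in 35.1%, and above all 9 lungs in 24.1%. The median log2 fold change of the 10 rows was 3.53, beside -0.05 over all tested rows. The gain ran from 2.24-fold for the merged Relb row to 34.9-fold for Tnfaip3. The 3 smallest folds were those of Relb's row, Nfkb1 and Nfkb2, and the 6 largest those of Tnfaip3, Birc3, Bcl3, Zc3h12a, Nfkbiz and Rel.

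Among the subunits, Nfkb1, whose precursor protein is processed to the p50 subunit, stood at 2624, 2402 and 2729 in the normoxia lungs and at 5807, 6904 and 7117 in the ECs. The lowest EC library was 2.13 times the highest of all lungs, and the row was 2.55-fold higher in ECs (log2 fold change 1.35 ± 0.11 SE, limma adjusted p = 8.16e-05). Nfkb2, which encodes the precursor of the p52 subunit of the non-canonical pathway, was at 1674, 1425 and 1242 in the lungs against 4489, 6833 and 5393 in the ECs. It was 3.82-fold higher (1.93 ± 0.17, adjusted p = 0.000142), again with no overlap. Rel, which encodes the c-Rel subunit, rose most of the subunit rows. It stood at 565, 589 and 505 in normoxia lung and at 5194, 8271 and 5032 in the ECs. All EC values were thus many times the lung values, a 10.9-fold difference (3.44 ± 0.19, adjusted p = 3.13e-05). The merged row of Clasrp and Relb, the partner of p52, was at 1330.2, 1306 and 1205 in the lungs and at 2662, 2837 and 3119 in the ECs. Its libraries varied little within each group, and it was 2.24-fold higher (1.16 ± 0.09, adjusted p = 8.04e-05).

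Of the IkappaB family, Nfkbia encodes IkappaB-alpha, the inhibitor that NF-kappaB resynthesises first. It was at 2572, 7500.3 and 2702 in the normoxia lungs and at 25923, 37185 and 33981 in the ECs. Normoxia lung 1 was far above its 2 partners, yet the lowest EC library was still 3.46 times the highest lung. The fold was 8.56 (log2 fold change 3.10 ± 0.40, adjusted p = 0.000635), with the widest standard error of the 10 rows. Nfkbiz, which encodes the nuclear cofactor IkappaB-zeta, was at 859, 995 and 637 in the lungs and at 7988, 13514.5 and 9239.7 in the ECs. The groups were far apart (12.2-fold, 3.61 ± 0.23, adjusted p = 4.21e-05). Bcl3, whose product joins p50 and p52 dimers in the nucleus, was at 309, 286 and 273 in the lungs. In the ECs it was at 4135, 8688 and 5207, the widest relative spread between EC libraries among the 10 rows (2.10 times from lowest to highest). The difference was 19.7-fold (4.30 ± 0.25, adjusted p = 3.24e-05).

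Of the feedback genes, Tnfaip3 and Birc3 had the largest gains of the 10 rows, and Zc3h12a came after Bcl3. Tnfaip3 encodes a ubiquitin-editing enzyme that shuts off signalling from TNF and Toll-like receptors. It was at 679, 527 and 654 in the normoxia lungs and at 18956, 27329 and 19263 in the ECs. The lowest EC library was 21.1 times the highest of the 9 lungs, and the fold against normoxia lung was 34.9 (log2 fold change 5.12 ± 0.17, adjusted p = 6.49e-06). Birc3, the ubiquitin ligase cIAP2, was at 366, 171 and 395 in the lungs and at 5858, 10654 and 11789.6 in the ECs. Normoxia lung 1 and EC 0 were the low libraries of their groups, and the difference was 30.9-fold (4.95 ± 0.38, adjusted p = 7.42e-05). Zc3h12a, which encodes the ribonuclease Regnase-1 that degrades inflammatory mRNAs, was at 469, 341 and 356 against 5621, 10642 and 6476. It was 18.9-fold higher (4.24 ± 0.24, adjusted p = 3.21e-05). Within the ECs, EC 0 was the lowest library for 9 of the 10 rows and EC 1 the highest for 7. Such shares over all rows were not counted, and EC 1 had the largest total signal of the ECs. None of the 10 calls in ECs was lost in any of 13 alternative settings or left-out libraries.

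**Figure D2:**
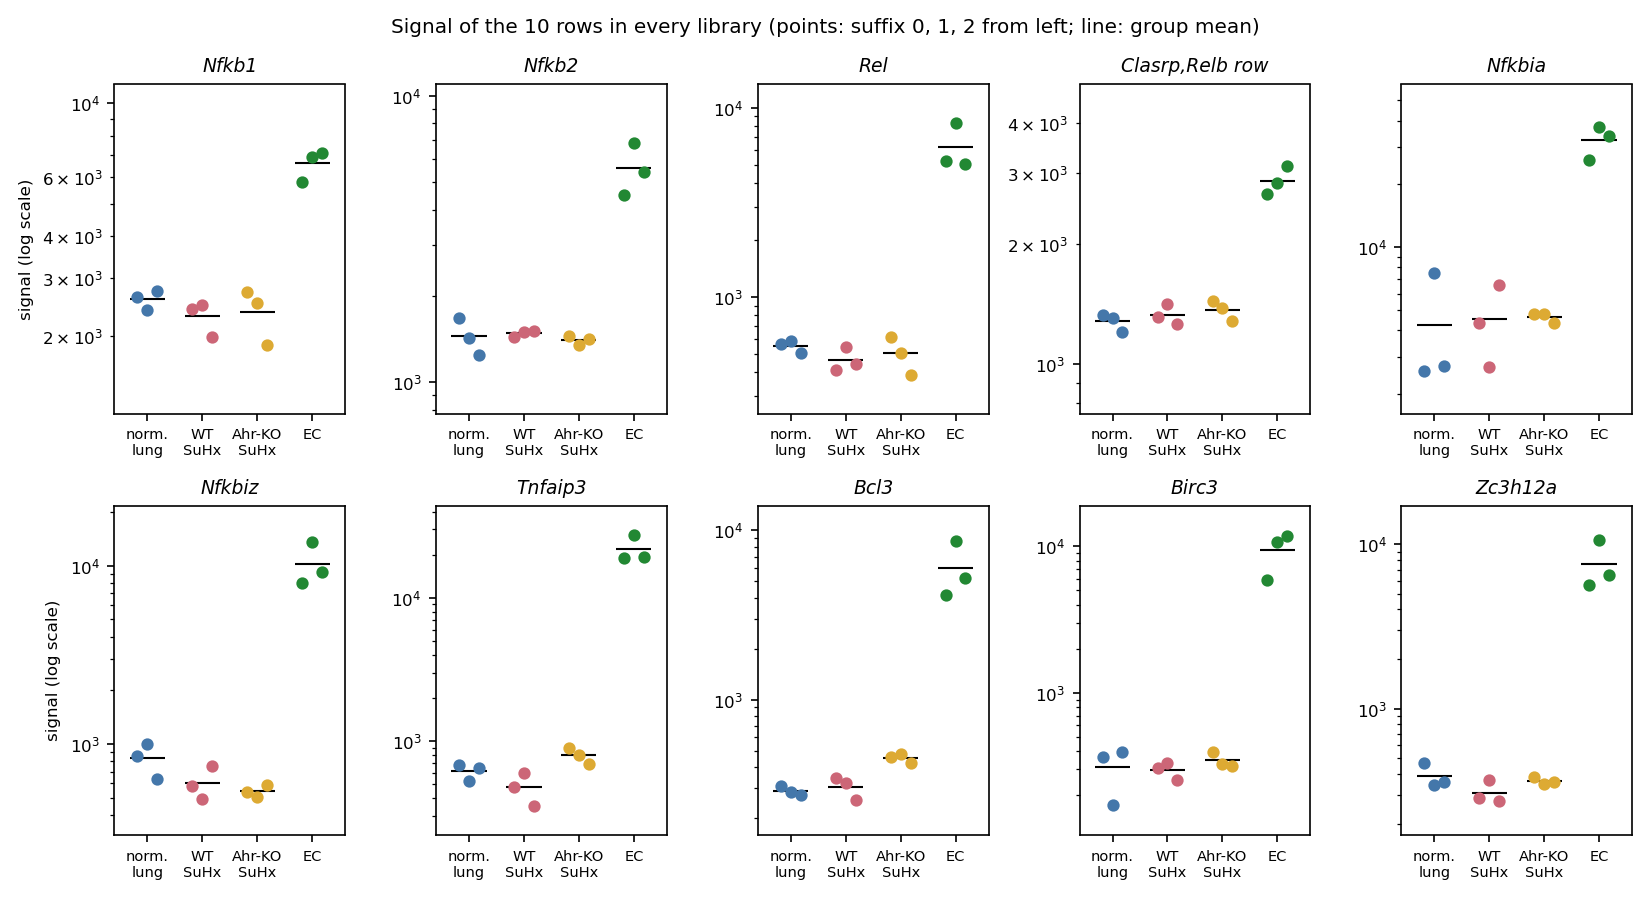
Signal (vertical log axis, deposited units) of the 10 rows in the 12 libraries, grouped as WT normoxia lung, WT SuHx lung, Ahr-KO SuHx lung and EC; points are libraries with suffix 0, 1 and 2 from left to right and lines are group means. In each panel the 3 EC points lie above all 9 lung points, by the least in the row of Clasrp and Relb (1.86 times) and by the most for Tnfaip3 (21.1 times).

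Over the 6 related lists 72 of 94 rows were called in the ECs, 66 higher and 6 lower (76.6%, beside 56.2% of all rows). Of 12 other core genes, 9 were higher, 1 was lower and 2 were not called, with a median log2 fold change of 0.69. Rela, which encodes the p65 subunit, was 2.79-fold higher (6272 ± 1274 SD against 2215 ± 51.3, n = 3 each), and the kinase gene Ikbkb 1.69-fold. The row of Nfkbie, merged with Slc35b2, was 2.43-fold higher, a change that cannot be given to Nfkbie alone. Nfkbid, which encodes another nuclear IkappaB, stood out of this list with a 15.8-fold gain. Of 20 receptors and adaptors, 11 were higher, 1 was lower and 8 were not called (median 0.57). The TNF receptor gene Tnfrsf1a was 2.45-fold and the ubiquitin ligase gene Traf6 2.53-fold higher, while the endotoxin receptor gene Tlr4 was the one that was lower, 2.76-fold.

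Among the 10 tested ligands, 5 were higher, 1 was lower and 4 were not called (median 1.28). The interleukin 1 genes Il1a (32.7-fold) and Il1b (30.6-fold) had folds of the size of the feedback genes, and Tnf was 5.25-fold higher (log2 fold change 2.39 ± 0.18). Tnfsf13b, which encodes the B cell factor BAFF, was 12.4-fold lower. Of the 14 other brakes, 9 were higher, 1 was lower and 4 were not called, but their median (0.53) was well under that of the 10 genes, and the largest fold of the 4 with the smallest adjusted p was 3.89, for the kinase-like inhibitor gene Irak3. Of 29 tested target genes, 25 were higher, 1 was lower and 3 were not called (median 3.06). The neutrophil chemokine gene Cxcl2 was at 11.9, 14.5 and 8.44 in the normoxia lungs and at 3705, 4168 and 4104 in the ECs (322.5-fold). Ptgs2, the inducible cyclooxygenase, was 28.3-fold higher, Ier3 21.0-fold and Cd83 9.68-fold. Of 10 mRNA decay factors, 8 were higher, 1 was lower and 1 was not called (median 0.80), led by Zfp36, which encodes tristetraprolin, at 26.8-fold.

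Markers of cells and of handling also differed between the ECs and the normoxia lungs, in both directions. The ECs were enriched in endothelial transcripts: all 10 endothelial markers were higher, by 1.73-fold (Tek) to 4.06-fold (Vwf), with summed signals of 249124 to 308210 against 91187 to 96756 in the normoxia lungs. The folds of 7 of the 10 NF-kappaB rows lay above that range and those of 3 within it. All 9 immediate early genes listed as signs of tissue handling were higher, from 10.4-fold (Dusp1) to 614-fold (Fosb), and their sums were 301081 to 436607 in the ECs and 11537 to 18700 in the lungs. The folds of 4 of the 10 rows lay below the lowest of these. The lowest immediate early sum of the ECs was that of EC 2. Leukocyte transcripts were also present. B cell markers summed to 6385 to 7561 in the ECs and 765 to 2477 in the lungs, with 5 of 6 tested rows higher and 1 lower. Neutrophil markers summed to 6674 to 9100.0 against 2213 to 4833 (5 of 7 higher), T and NK cell markers to 4783 to 11218 against 2602 to 4518 (4 of 9 higher, 2 lower), and dendritic cell markers to 7725 to 10159 against 1423 to 1960.0 (4 of 5 higher, 1 lower). Of 9 tested monocyte and macrophage markers 1 was higher and 5 were lower (sums 4574 to 11358 against 6450 to 10508). All 8 alveolar epithelial markers were lower but still summed to 102560 to 230400. The part of these cells and of handling in the NF-kappaB differences was not tested.

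**Figure D3:**
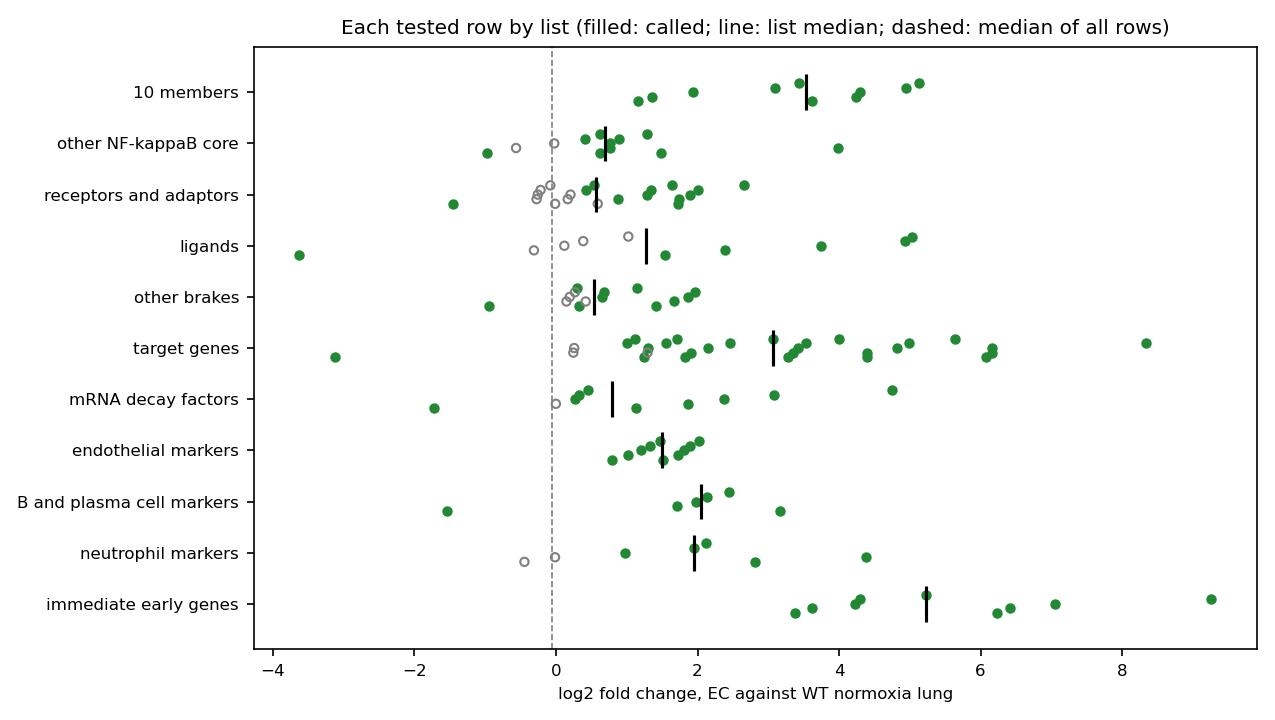
Log2 fold change of ECs against WT normoxia lung (horizontal axis) for each tested row of the 10 genes, of 6 related pathway lists and of 4 marker lists; filled points were called, open points were not, the black line is the list median and the dashed line the median of all rows. The median is 3.53 for the 10 genes, 1.49 for endothelial markers and 5.22 for immediate early genes.

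WT SuHx lung was compared with WT normoxia lung to see whether the genes responded at day 4. None of the 10 rows was called by limma, beside 13.5% of all rows (7.08% higher and 6.39% lower), and no row had groups that did not overlap, beside 17.0% of all rows without overlap upward and 19.7% downward. At an unadjusted p under 0.05 there was 1 row, Nfkbiz. The share of all rows under that unadjusted cut was not counted, here or below, so such counts have no background. The median log2 fold change was -0.07 over the 10 rows and -0.04 over all rows tested. Nfkbiz was at 579.9, 493 and 749 in the WT SuHx lungs, so that only WT SuHx 2 reached into the normoxia range of 637 to 995 (log2 fold change -0.45 ± 0.19, 95% interval -0.88 to -0.02, adjusted p = 0.142). Without normoxia lung 2, its lowest normoxia library, the row was called lower (-0.63, adjusted p = 0.0493), while its adjusted p ranged from 0.0493 to 0.359 over the alternatives.

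The feedback genes Tnfaip3 and Zc3h12a had values below 0 without a call. Tnfaip3 was at 481, 602 and 355 in WT SuHx lung, with WT SuHx 1 inside the normoxia range (-0.39 ± 0.19, interval -0.83 to 0.04, adjusted p = 0.194). Zc3h12a was at 286, 366 and 273, and here too WT SuHx 1 lay within the normoxia values (-0.33 ± 0.16, interval -0.70 to 0.04, adjusted p = 0.195). Birc3 was at 309, 334 and 253, all inside the wide normoxia range of 171 to 395 (0.03 ± 0.29).

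The subunit rows were not called either. Nfkb1 was at 2424, 2476 and 1991 (-0.18 ± 0.15), Nfkb2 at 1435, 1489 and 1510.2 (0.04 ± 0.11) and Rel at 411, 544 and 442 (-0.26 ± 0.18). The merged Relb row was at 1308, 1416 and 1257 (0.05 ± 0.09, interval -0.15 to 0.25). For these 4 rows the 95% intervals together reached from -0.65 to 0.29, so a change of 2-fold lies outside each of them. Bcl3 was at 345, 323 and 255 (0.08 ± 0.14). Nfkbia had the least precise value, at 4327, 2672 and 6609 in the SuHx lungs, where WT SuHx 2 was high much as normoxia lung 1 was (0.18 ± 0.42, interval -0.75 to 1.12). A 2-fold rise of Nfkbia therefore lies within its interval.

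Over the 6 related lists, 12 of 93 rows were called in WT SuHx lung, 8 higher and 4 lower. This share, 12.9%, was near the 13.5% of all rows, so the calls are given as values of single genes. Of the 20 receptors and adaptors 3 rose, 2 fell and 15 were not called. The interleukin 1 receptor gene Il1r1 went from 2658, 2295 and 2268 to 4029.7, 4688 and 3818, with no overlap (1.73-fold, adjusted p = 0.00221), and Tnfrsf1a rose 1.38-fold. The kinase gene Irak2 fell by 0.53 and Tlr4 by 0.42 on the log2 scale. Of 28 tested target genes 4 rose, 1 fell (Tnfaip2) and 23 were not called, and the chemokine genes Cxcl10 (7.56-fold) and Ccl2 (5.58-fold) led the rises. The log2 fold change of Ccl2 was 2.48, and 1.79 without normoxia lung 1, its lowest library. Among the core genes 1 of 12 rose, the row of Nfkbie merged with Slc35b2 (1.37-fold), so the rise cannot be given to Nfkbie alone. N4bp1, a ribonuclease gene listed with both the brakes and the decay factors, fell by 0.58 on the log2 scale and was the single call of either list. No ligand was called, with 2 of 10 at an unadjusted p under 0.05. These calls were less stable than those in ECs: Il1r1, Tnfrsf1a and Cxcl10 kept theirs in all 17 alternatives counted, while Tlr4 and the Nfkbie row lost theirs in 6, Tnfaip2 in 5, N4bp1 in 4, Ccl2 and Vcam1 in 3 and Irak2 in 2.

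The lungs labelled Ahr-KO were compared with WT lungs under the same SuHx to see which of the genes differed with the genotype. None of the 10 rows was called by limma, beside 0.499% of all rows (0.197% higher and 0.302% lower). At an unadjusted p under 0.05, a cut whose share over all rows was not counted, there were 2 rows, Tnfaip3 and Bcl3. Both were higher in the lungs labelled Ahr-KO in all 3 libraries, without overlap, beside 11.7% of all rows without overlap in that direction and 10.2% in the other. The median log2 fold change was 0.11 for the 10 rows and 0.02 for all rows.

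Bcl3 was at 461, 477 and 421 in the lungs labelled Ahr-KO and at 345, 323 and 255 in the WT SuHx lungs. The lowest of the first group was above the highest of the second (1.48-fold, log2 fold change 0.57 ± 0.14, interval 0.25 to 0.88, adjusted p = 0.141). Tnfaip3 was at 896, 805 and 689 against 481, 602 and 355, again with no overlap (1.69-fold, 0.76 ± 0.19, interval 0.32 to 1.19, adjusted p = 0.153). WT SuHx 2 was the lowest library for both, and without it the values were 0.44 for Bcl3 and 0.56 for Tnfaip3. Neither was called in any of the 17 alternatives counted, in which the adjusted p was 0.135 to 0.381 for Bcl3 and 0.0978 to 0.402 for Tnfaip3.

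Values of the other 8 rows lay closer to 0. Nfkb1 was at 2711, 2527 and 1879 in the lungs labelled Ahr-KO (0.04 ± 0.15), Nfkb2 at 1445, 1345 and 1413 (-0.08 ± 0.11) and Rel at 617, 509 and 388 (0.10 ± 0.18). Ahr-KO 2 was the lowest of its group for Nfkb1 and Rel, and for 7 of the 10 rows, a share that was not counted over all rows. The merged Relb row was at 1435, 1378 and 1283 (0.04 ± 0.09). Nfkbia was at 4777, 4794 and 4338, much closer together than in either WT lung group (coefficient of variation 5.58%, against 66.0% in normoxia and 43.6% in WT SuHx), at a difference of 0.13 ± 0.42. Nfkbiz was at 536, 506 and 592 (-0.14 ± 0.19), Birc3 at 396, 325 and 319 (0.22 ± 0.29) and Zc3h12a at 384, 349 and 358 (0.25 ± 0.16). Over the related lists 1 of 93 rows was called (1.08%, beside 0.499% of all rows). Il1r1 was at 2126, 2237 and 1930.0 in the lungs labelled Ahr-KO, below all WT SuHx lungs (-0.99 ± 0.11, 1.99-fold lower, adjusted p = 0.00383), and it kept its call in all 17 alternatives counted.

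**Figure D4:**
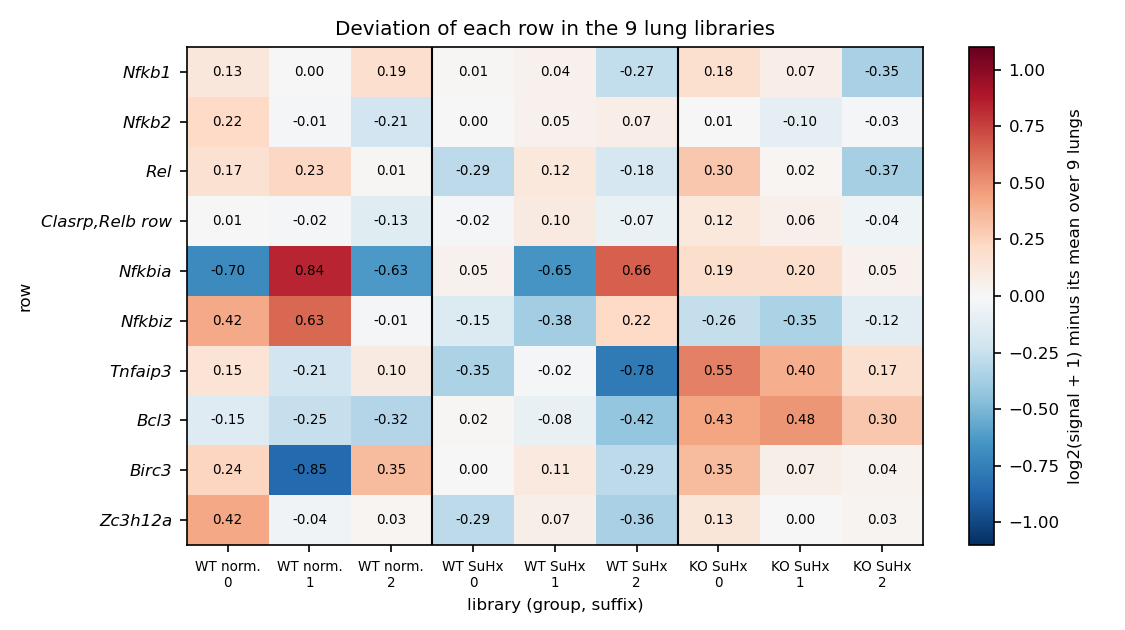
Deviation of log2(signal + 1) from its mean over the 9 lungs for each row (vertical) and library (horizontal, 3 per group); red is above and blue below the mean. Bcl3, Tnfaip3, Nfkbia and Birc3 are above their means in all 3 lungs labelled Ahr-KO. Nfkbia varies most, from -0.70 to 0.84 within the normoxia lungs.

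The lungs labelled Ahr-KO were also compared with WT normoxia lung. The lung comparisons share groups, so their values are given side by side and are not independent. Bcl3 was called higher, as 1 of 10 rows beside 5.95% of all rows called higher, 3.80% called lower and 9.75% called in either direction. With 461, 477 and 421 against 309, 286 and 273 the groups did not overlap (1.56-fold, log2 fold change 0.64 ± 0.14, adjusted p = 0.0209), whereas its value for WT SuHx against the same lungs was 0.08 ± 0.14. The call was lost in 5 of 17 alternatives counted, where the adjusted p reached 0.0881. These included the fit without normoxia lung 1 (adjusted p = 0.0595), without Ahr-KO 0 (0.0658) and without Ahr-KO 1 (0.0881), where its log2 fold changes were 0.64, 0.63 and 0.61. Over all alternatives counted the adjusted p ran from 0.00938 to 0.0881.

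Tnfaip3 lay above all normoxia lungs as well, by less (0.36 ± 0.19, adjusted p = 0.272), which with Bcl3 made 2 rows without overlap upward, beside 15.1% of all rows. Nfkbiz was the 1 row without overlap downward, beside 17.9% of all rows, since its highest value in the lungs labelled Ahr-KO (592) was under the lowest in normoxia (637). It had a log2 fold change of -0.59 ± 0.19 (interval -1.02 to -0.16, adjusted p = 0.0875), and without normoxia lung 2 it was called (-0.77, adjusted p = 0.0282; range over the alternatives 0.0282 to 0.250). The remaining 7 rows were between -0.15 (Rel) and 0.31 (Nfkbia), with p-values that missed the threshold. These groups allow no test of an interaction, so it was not tested whether SuHx acted on Bcl3, Tnfaip3 or Nfkbiz differently in the genotypes.

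Over the related lists, 7 of 93 rows were called between the lungs labelled Ahr-KO and normoxia, 2 higher and 5 lower. This share, 7.53%, stood beside 9.75% of all rows. Tnfrsf11a, the receptor RANK, was at 395, 419 and 397 against 174, 176 and 189 (2.24-fold higher, adjusted p = 0.000785), and Vcam1 rose 1.66-fold. Lower were the alarmin gene Il33 (2.14-fold), Rela (1.28-fold), Traf1 (1.52-fold), Irak2 (1.43-fold) and Plau (1.56-fold). Of 17 alternatives counted, the call of Plau was lost in 12, those of Rela and Traf1 in 11 each, that of Irak2 in 6, that of Vcam1 in 2 and that of Il33 in 1, while Tnfrsf11a kept its call in all. No brake or decay factor was called by limma, with 2 of 14 and 4 of 10 at an unadjusted p under 0.05.

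Cell markers also differed between the lung groups. All 4 erythroid markers were higher in both SuHx groups than in normoxia (sums of 4225 to 6994 in WT and 3277 to 6364 in the lungs labelled Ahr-KO, against 687 to 1216). Neutrophil markers summed to 9004 to 13067 and 8521 to 12531 against 2213 to 4833, with 2 of 7 called higher in WT SuHx and 3 in the lungs labelled Ahr-KO. Lcn2 made up most of the WT SuHx sums (6534 to 9548, against 1357 to 1853 in normoxia). Without Lcn2 the sums were 2471 to 5605 in WT SuHx and 3735 to 5510 in the lungs labelled Ahr-KO, against 856 to 3032, so that WT SuHx overlapped normoxia. The median log2 fold change of the 7 neutrophil markers in WT SuHx against normoxia was 1.21. Il1r2 was at 200, 187 and 248 in WT SuHx against 28.6, 39.2 and 42.9, with no overlap. The neutrophil receptor gene Csf3r was not called in WT SuHx (-0.16), nor was the merged row of Cxcr2 (-0.21). Endothelial markers summed to 66560 to 76296 and 57060 to 78549 against 91187 to 96756, with 4 of 10 lower and 1 higher in each SuHx group. Of 7 smooth muscle markers 4 were higher and 1 was lower in each. Of 9 tested monocyte and macrophage markers 3 were higher and 0 lower in each SuHx group. The same counts held for the 6 fibroblast markers. None of the 9 immediate early genes was called by limma in a lung comparison. Between the SuHx groups 1 of 7 neutrophil and 1 of 9 monocyte and macrophage markers were called, both lower in the lungs labelled Ahr-KO. The neutrophil call went against most of its list, whose median log2 fold change there was 0.55. That of the monocyte and macrophage markers was -0.11. Cardiac muscle markers were uneven. They summed to 1006, 356 and 9949.7 in normoxia lung and to 2886, 2345 and 2053 in WT SuHx lung. In the lungs labelled Ahr-KO the sums were 6263, 4995 and 20629, all above those of WT SuHx. None of the 7 cardiac markers was called in a lung comparison. Leaving out normoxia lung 2 and Ahr-KO 2 gave 0.66 for Bcl3 in the lungs labelled Ahr-KO against normoxia (limma adjusted p = 0.0602). Against WT SuHx it gave 0.62, but the remaining lungs labelled Ahr-KO still had the higher cardiac sums. The part of cell makeup in the lung values was not tested.

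**Figure D5:**
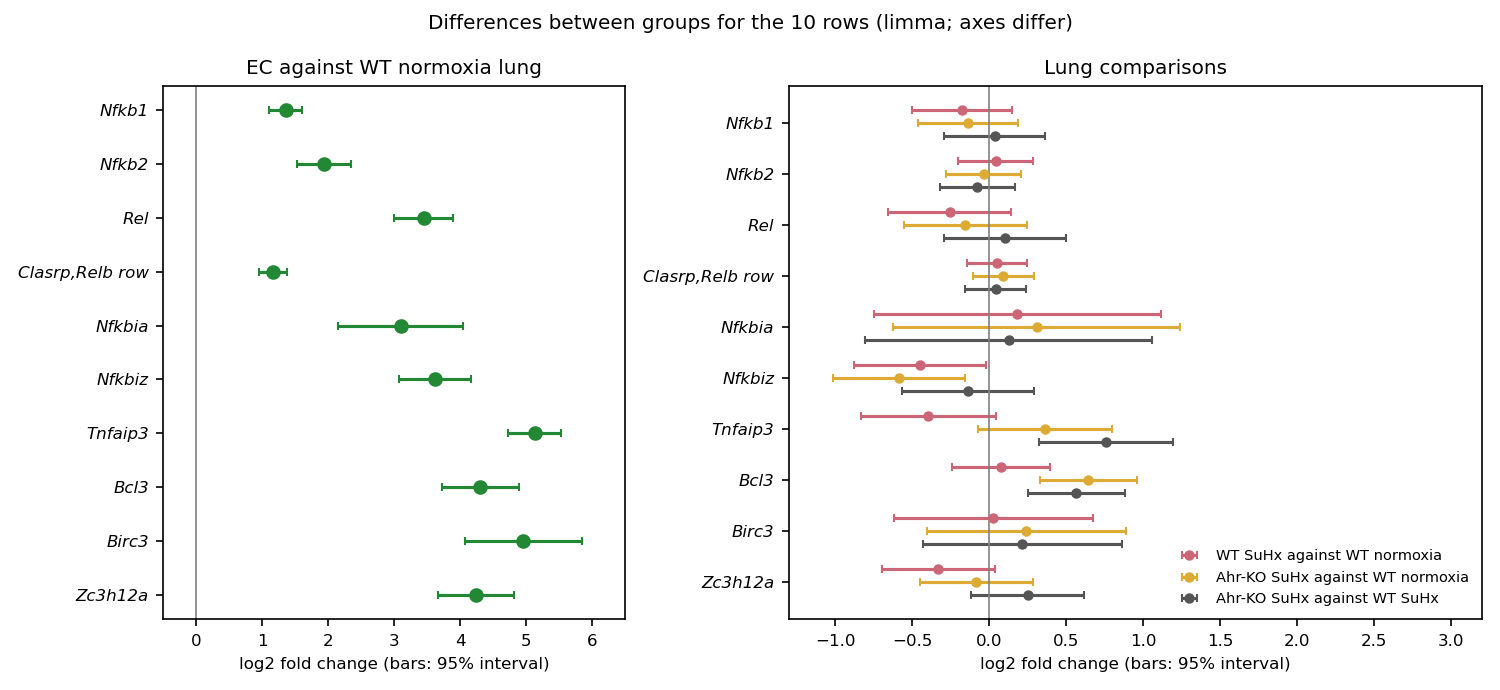
Log2 fold changes with 95% intervals (horizontal axes, which differ between panels) of the 10 rows, for ECs against WT normoxia lung on the left and for the 3 lung comparisons on the right. All EC intervals lie above 0, the lowest value being 1.16; on the right Bcl3 (0.64 against normoxia) is the only row called.

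The genes with the most similar profile were found over all 12 libraries, by the root mean square distance between centred log2 values among 11384 rows with a mean signal of at least 50. The points share libraries and the step from lung to ECs enters each profile, so likeness is a description with no test. Nearest were Fgd3 (0.0831) and Syk (0.1002) to Nfkb1, Esam (0.0981) and Wsb1 (0.134) to Nfkb2, Spidr and Trim69 (0.204 each) to Rel, and Kctd12 (0.0771) and Mnd1 (0.0875) to the merged Relb row. For the IkappaB family they were Tmem252 (0.300) and Sema6b (0.340) for Nfkbia, Noct (0.281) and Map3k8 (0.284) for Nfkbiz, and Trim69 (0.274) and Procr (0.312) for Bcl3. For the feedback genes they were Txndc12 (0.331) and Csrnp1 (0.451) for Tnfaip3, Il1b (0.388) and Rtp3 (0.395) for Birc3, and Procr (0.242) and Ppp1r15a (0.270) for Zc3h12a. These distances grow with the size of a row's own profile. Divided by the root mean square of that profile, the distance to the nearest gene ran from 0.115 for Nfkb2 to 0.221 for Nfkbia.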

How the data were processed

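RNA of rat lung and lung ECs was sequenced in 12 libraries, extracted with Trizol and a column kit per the labels' protocols. The submitters' processing notes name the rn6 build and FastQC without versions. Aligner, counter and normalization were not given in the sources used here. The authors deposited 1 table of signal values. As read from the values, the unit is an estimated read count divided by 1 factor per library, with 80.9% to 81.8% of values within 0.05 of a whole number of reads, so limma was used in place of a count test. Columns carry the group and a suffix, which does not match the sample titles, so columns were assigned to groups only.

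A row entered a fit where its mean signal there reached 1. Values were taken as log2(signal + 1), and limma 3.58.1 (R 4.3.3) gave the tests (trend, two-sided, Benjamini-Hochberg over all rows, tested on simulated data). The lung comparisons came from 1 fit of 9 libraries with 15234 rows, and ECs against normoxia lung from a fit of 6 libraries with 15186 rows. Fold changes are on the log2(signal + 1) scale. All 10 genes are named, plus from each related list up to 4 called genes with the smallest adjusted p. A list's other genes are given as counts. Of 30 target genes 29 had a row. Genes that overlap or resemble others may share reads. The members and lists were chosen with earlier results of these data known. Alternatives were limma without trend, quantile normalization, other filters and pseudocount, a fold threshold, other libraries in the fit, the suffix as a block and each library left out. Counts of alternatives in the report omit the block and the fold threshold. Leaving out normoxia lung 2 and Ahr-KO 2 together was chosen after seeing the data. A count test was planned only for whole counts and was not run.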

Additional observations from a re-analysis of the deposited data

How the results depend on the processing

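All 10 rows were called higher in ECs under every alternative run. Against normoxia, the WT SuHx lungs gave 0 to 1 called rows and those labelled Ahr-KO 0 to 2 with 1 library left out, and Ahr-KO against WT SuHx gave 0 in each such fit. The count for Ahr-KO against normoxia was 0 when a change of 1 or more on the log2 scale was also asked for, and 0 with all 12 libraries in 1 fit (Bcl3 adjusted p = 0.0876). Without normoxia 2 and Ahr-KO 2 together it stayed at 1, but Nfkbiz (-0.83, adjusted p = 0.0436) took the place of Bcl3. No same-numbered libraries are stated to be paired. With the suffix as a replicate block the counts of called rows were 0, 0, 1 and 10, as without it, while calls over all rows were 3385 in place of 2052 for WT SuHx, 2171 in place of 1485 for Ahr-KO against normoxia, 82 in place of 76 for Ahr-KO against WT SuHx and 8559 in place of 8539 for ECs. Deviations of same-suffix libraries correlated at -0.07 to 0.29 in 18 pairs, and in 20 of 36 comparisons of a library with another group the highest correlation was with the same suffix. Rows that were not called and lay near 0 changed sign in some fits. Nfkb2 in Ahr-KO against normoxia was 0.038 with quantile normalization. Without normoxia 2 and Ahr-KO 2 together, Nfkb1 was 0.060 there, and Nfkb2 was -0.064 and Nfkbia -0.050 in WT SuHx against normoxia. With 1 library left out, WT SuHx against normoxia ranged from -0.14 to 0.69 for Nfkbia, -0.36 to 0.24 for Birc3, -0.064 to 0.15 for Nfkb2 and -0.011 to 0.21 for Bcl3. Ahr-KO against WT SuHx ranged from -0.21 to 0.45 for Nfkbia, -0.069 to 0.20 for Nfkb1, -0.28 to 0.023 for Nfkbiz and -0.055 to 0.28 for Rel. Ahr-KO against normoxia ranged from -0.14 to 0.074 for Nfkb2, -0.17 to 0.061 for Zc3h12a, -0.14 to 0.46 for Birc3, -0.24 to 0.020 for Nfkb1 and -0.31 to 0.022 for Rel. The cause of these changes was not tested. With 3 libraries a group, a missed threshold does not show that groups were alike.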

Other observations

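The high Nfkbia libraries were set beside 2 other genes, chosen after their values were seen. Tsc22d3, a glucocorticoid-induced gene, had normoxia values of 4216, 15043 and 3644. Its values were 5936, 4138 and 8362 in WT SuHx lung, and 5285, 5795 and 6083 with the label Ahr-KO. Its high libraries, normoxia 1 and WT SuHx 2, were those of Nfkbia. Fkbp5, also glucocorticoid-induced, had normoxia values of 364, 2757 and 844 and WT SuHx values of 689, 688 and 786, so that normoxia 1 stood out and WT SuHx 2 did not. Birc3 was lowest in normoxia 1 (171). No test was run on these values.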
